A study of Mus musculus with 20 samples.

Results

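The genes examined were 8 that act at the entry of glucose into muscle: the glucose transporters Slc2a1, Slc2a3, Slc2a4 and Slc2a12, the hexokinases Hk1 and Hk2, and the Rab GTPase-activating proteins Tbc1d1 and Tbc1d4. They were taken by symbol from a table of 53311 gene rows, and all 8 were among the 13560 genes with enough counts to be tested. RNA had been sequenced from gastrocnemius, a calf muscle, of mice that all carried Cre and the floxed alleles (Cre+:iMSBmal1 fl/fl). Some had been given vehicle and the others are labelled iMSBmal1KO, a loss in skeletal muscle of Bmal1, a transcription factor of the circadian clock. All carried the same alleles, so this label, called genotype below, goes together with the treatment given. Effects of that treatment and of a loss of Bmal1 cannot be told apart here. Muscles came from unexercised mice at zeitgeber time 13 (ZT13) or from mice that had run for 30 min on a treadmill 1 h earlier (ZT13-1 Hour Post), 5 samples for each of the 4 combinations. These groups are called vehicle or knockout, at rest or after exercise. The descriptions of the exercised knockout samples read Exercise Trained where the titles read Acute Exercise, and the titles were followed. The promoter that drives Cre, the age of the mice and whether each sample is 1 animal are not given in the sources used here, so the p-values measure the spread between these samples.

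Glucose enters a muscle fibre through facilitative transporters and is trapped inside when a hexokinase phosphorylates it. GLUT4, the product of Slc2a4, waits in vesicles and moves to the cell surface after insulin or contraction, while TBC1D1 and TBC1D4 hold the vesicles back until AKT or AMPK phosphorylates them. Hexokinase II is the main hexokinase of skeletal muscle, and its gene is known to respond to insulin and to exercise.

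Total counts ran from 8045154 to 11269812 per sample. Arntl, which encodes BMAL1, had 77 to 198 counts per library and was not called lower in the knockout-labelled samples (edgeR): the log2 fold change was 0.24 at rest (adjusted p 0.725) and 0.20 in the exercised muscles (adjusted p 0.689). A gene-level count also covers exons outside a floxed segment, so it does not check the deletion, and every genotype direction below rests on the labels. All 5 markers of skeletal muscle (Acta1, Ckm, Des, Mb and Tnnc2) were detected in every group, with a summed level of 49109 to 72798 CPM (counts relative to the scaled library size). The amount of slow fibre RNA differed widely: 9 slow-fibre markers, among them Myh7 and Tnnt1, summed to 48.8 CPM in the lowest library and to 4019 CPM in the highest. A slow-fibre score, their mean log2 CPM, was under 3 in 5 libraries, namely vehicle at rest replicate 5, vehicle after exercise replicates 2 and 4, and knockout after exercise replicates 2 and 4. Of all marker genes of 11 cell-type lists, the genotype contrasts called Casq2, a slow-fibre calsequestrin (1.77 on the log2 scale on average, adjusted p 0.0345), and Hba-a2, a haemoglobin gene (-1.90 after exercise, adjusted p 0.0198), and their part in the results below was not tested. Casq2 is 1 of the 9 markers in the slow-fibre score, so the score holds a gene that was called between the genotype labels. How this acts on the fits with the score was not tested. The 5 libraries of low score stood apart, and results on exercise are given with and without them.

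Among the genes with a start-site window at hand, Hk2 and Tbc1d1 differed most between the genotype labels, so their windows are shown. RefSeq windows (GRCm38.p6) of 300 bases, from 250 bases before a gene's start to 50 after it, covered 6 of the 8 genes in 8 windows; Slc2a3 and Slc2a4 were not matched. In the windows of Hk2 (chr6:82774405-82774704, minus strand) and of both starts of Tbc1d1 (chr5:64160010-64160309 and chr5:64230107-64230406, plus strand), capitals mark TGACG on either strand, the core of the cAMP response element.
Hk2: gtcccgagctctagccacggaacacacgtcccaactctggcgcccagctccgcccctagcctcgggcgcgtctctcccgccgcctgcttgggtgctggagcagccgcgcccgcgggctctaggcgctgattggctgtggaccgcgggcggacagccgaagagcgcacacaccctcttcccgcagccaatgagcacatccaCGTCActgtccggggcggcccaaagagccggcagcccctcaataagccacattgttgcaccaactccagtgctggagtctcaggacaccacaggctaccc
Tbc1d1 upstream start: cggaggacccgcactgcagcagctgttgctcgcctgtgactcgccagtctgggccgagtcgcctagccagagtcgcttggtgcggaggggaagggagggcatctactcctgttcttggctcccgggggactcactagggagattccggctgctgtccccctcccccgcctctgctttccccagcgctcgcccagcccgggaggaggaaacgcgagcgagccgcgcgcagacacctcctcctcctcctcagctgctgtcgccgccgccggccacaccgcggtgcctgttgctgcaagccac
Tbc1d1 downstream start: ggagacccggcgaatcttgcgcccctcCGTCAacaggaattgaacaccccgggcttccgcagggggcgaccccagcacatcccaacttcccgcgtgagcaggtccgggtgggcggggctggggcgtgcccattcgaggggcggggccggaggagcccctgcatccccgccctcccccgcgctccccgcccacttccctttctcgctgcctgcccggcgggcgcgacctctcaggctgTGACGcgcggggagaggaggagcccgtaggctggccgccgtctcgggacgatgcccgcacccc
The E-box CACGTG, the site that BMAL1 and its partner CLOCK are known to bind, was searched on both strands and lay in 0 of the 8 windows, while 7.15% of all 32851 windows of this length hold it. The D-box TTATGTAA, bound by PAR bZIP factors such as DBP, was also in 0 of 8 and is in 0.938% of all windows. The variant CACGTT lay in 1 window, that of an Hk1 start, and is in 4.68% of all. A match to TGACG began 50 bases before the start of Hk2 and at 223 and 13 bases before the downstream start of Tbc1d1, and 20.8% of all windows hold one. No other window of the 8 held a match, and any link to the levels was not tested. The full element TGACGTCA was also searched and lay in 0 of the 8 windows, while 1.79% of all windows hold it. The GC box GGGCGG lay in windows of Slc2a1, Hk2, Tbc1d4 and the downstream start of Tbc1d1, and is in 35.7% of all. CCAAT lay in those of Slc2a1 and Hk2 (37.4% of all), and TATAAA in that of Slc2a1 (13.6%). The letters describe these windows alone and say nothing of sites elsewhere in the genes.

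Levels were compared between genes per kilobase of exon, with lengths from the GENCODE M21 annotation. In vehicle muscle at rest the order was Slc2a4 (164 ± 10.3 CPM per kb, SD, n = 5), Hk2 (82.4 ± 11.9), Tbc1d1 (14.5 ± 3.95), Tbc1d4 (7.13 ± 1.73), Slc2a3 (3.31 ± 1.36), Slc2a12 (2.69 ± 0.448), Slc2a1 (2.19 ± 0.280) and Hk1 (0.725 ± 0.120). The ranges of the neighbours Tbc1d4 and Slc2a3, Slc2a3 and Slc2a12, and Slc2a12 and Slc2a1 overlapped. In knockout-labelled muscle at rest, Slc2a4 (144 ± 3.91 CPM per kb) and Hk2 (47.9 ± 1.49) still led. Tbc1d4 (7.24 ± 1.14) then stood beside Tbc1d1 (5.62 ± 2.06) with overlapping ranges, and Slc2a3 (0.312 ± 0.164) came last, below Hk1 (0.722 ± 0.135) with no overlap. Within a library, the level of Hk2 per length was 117 ± 26.7 times that of Hk1 in vehicle at rest and 68.2 ± 12.0 times in knockout at rest. Tbc1d1 stood at 2.25 ± 1.15 times Tbc1d4 in vehicle at rest and at 0.783 ± 0.255 times in knockout at rest.

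**Figure D1:**
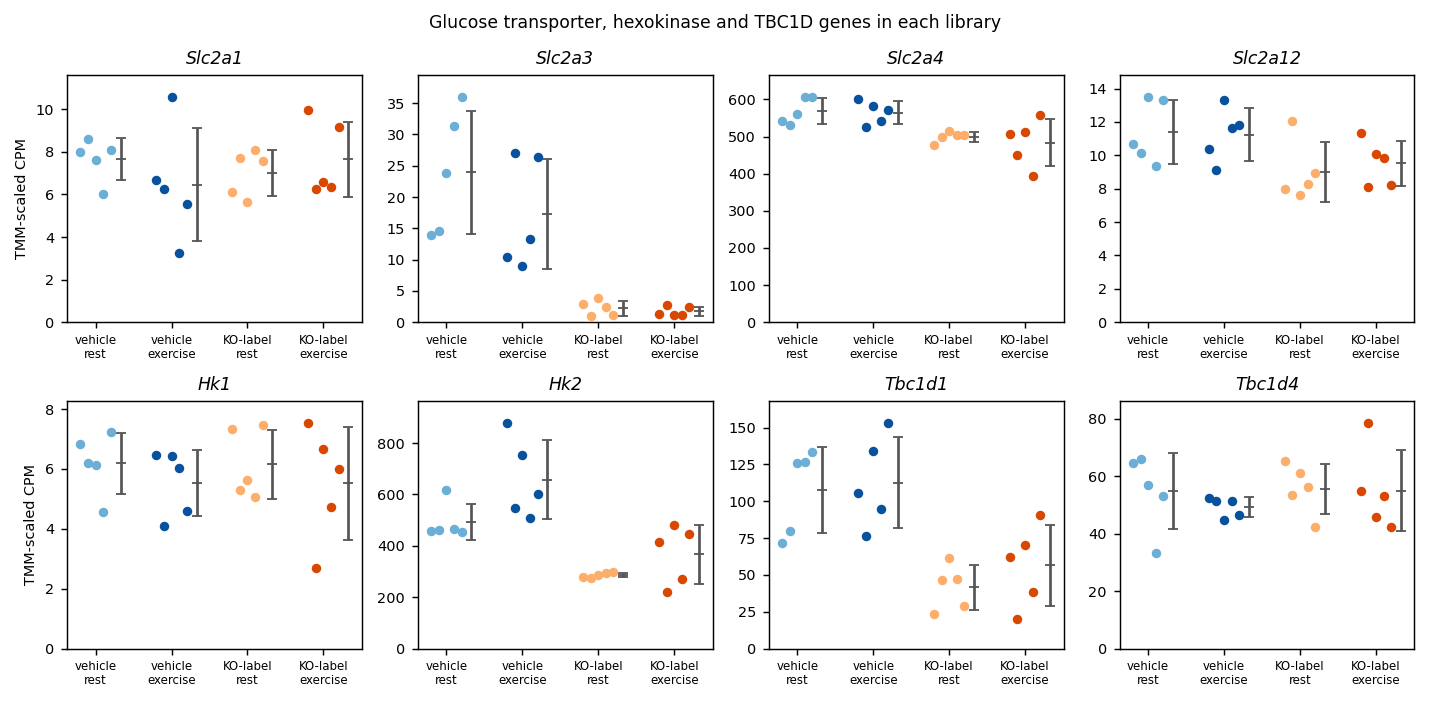
Each panel plots the scaled CPM of 1 gene in each of the 20 libraries by group, with the mean ± SD beside the points. Slc2a3 lies between 9.04 and 36.0 CPM in the 10 vehicle libraries and between 1.03 and 3.87 CPM in the 10 knockout-labelled ones, whereas Hk1 and Tbc1d4 overlap in all 4 groups.

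Slc2a3 encodes GLUT3, a transporter with high affinity for glucose that is best known from neurons. It stood at 13.9, 14.6, 23.9, 31.4 and 36.0 CPM in vehicle at rest and at 1.03, 1.17, 2.37, 2.86 and 3.87 CPM in knockout at rest. After exercise it stood at 9.04, 10.5, 13.3, 26.4 and 27.1 CPM in vehicle and at 1.08, 1.09, 1.39, 2.40 and 2.699 CPM in knockout. Every knockout-labelled library was below every vehicle library, in both states. Of the members it alone separated all 10 libraries of either genotype, which 1.77% of the genes tested did in the averaged contrast. The fold change averaged over both states was a log2 value of -3.34 (SE 0.31), a 10.1-fold lower level, with an adjusted p of 5.63e-07 over all genes (edgeR quasi-likelihood). The knockout-labelled libraries held 8 to 35 counts of Slc2a3 each. Averaged over genotypes, exercise moved it by -0.41 on the log2 scale (SE 0.32, adjusted p 0.886).

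Slc2a3 also varied within the vehicle groups. In vehicle at rest, replicates 4 and 5, with slow-fibre scores of 5.68 and 2.64, had 31.4 and 36.0 CPM, and replicates 1 and 2, with scores of 7.70 and 7.49, had 13.9 and 14.6 CPM. After exercise the lowest vehicle values, 9.04 and 10.5 CPM, were also in the libraries with the highest scores of that group, 7.60 and 7.34. The highest, 27.1 CPM, was at the lowest score, 0.025. However, a score of 2.79 went with 13.3 CPM and one of 5.64 with 26.4 CPM. In knockout after exercise the lowest score, 1.14, went with the lowest level, 1.08 CPM. There a score of 1.42 went with 2.699 CPM and one of 7.70 with 2.40 CPM. In knockout at rest the highest score, 8.41, went with the lowest level, 1.03 CPM, and the lowest score, 4.53, with 2.37 CPM. In a model with the score as a covariate, Slc2a3 changed by -0.15 on the log2 scale per unit of score (SE 0.053, adjusted p 0.0578), which did not pass, and the averaged genotype difference was -3.22 (SE 0.27, adjusted p 1.67e-07). Without the 5 libraries of low score it was -3.20 (SE 0.37, adjusted p 1.04e-04). Markers of other cell types were compared at rest, and their ranges overlapped between genotypes: the summed level of the 5 nerve and Schwann cell markers ran from 37.5 to 46.2 CPM in vehicle at rest and from 35.3 to 47.1 CPM in knockout at rest. The 5 neutrophil and platelet markers, 1 of them at 0 counts in every library, summed to 1.97 to 5.02 and 1.33 to 3.45 CPM, and the 5 macrophage markers to 19.3 to 38.2 and 23.5 to 30.1 CPM. Only 1 neutrophil or platelet marker, Pf4, passed the filter on low counts, so that sum cannot tell the content of these cells. In bulk samples, fewer cells of a type and less RNA per cell cannot be told apart.

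Slc2a4 encodes GLUT4, the transporter that insulin and contraction move to the surface of muscle fibres. It stood at 530, 541, 561, 606 and 607 CPM in vehicle at rest and at 478, 500.1, 503, 505 and 515 CPM in knockout at rest. Both groups did not overlap at rest, as for 5.8% of the genes tested, but the difference was small. After exercise it stood at 526, 542, 571, 582 and 602 CPM in vehicle and at 393, 449, 506, 512 and 557 CPM in knockout, and the groups overlapped. The log2 fold change was -0.19 at rest (95% interval -0.37 to -0.0052, adjusted p 0.324) and -0.22 after exercise (95% interval -0.40 to -0.043, adjusted p 0.143), and neither passed the threshold of 0.05. Averaged over both states it was -0.21 (SE 0.062, adjusted p 0.0331, edgeR), or 0.868 of the vehicle level. Dropping a single library ended this call in 6 of 20 fits (vehicle at rest 4 and 5, vehicle after exercise 1 and 5, knockout at rest 1, knockout after exercise 2), where the highest adjusted p was 0.0615. It also ended with scaling by library size only (adjusted p 0.114) and with the 5 libraries of low slow-fibre score dropped (-0.16, adjusted p 0.105). With that score as a covariate instead, Slc2a4 was called (-0.22, SE 0.053, adjusted p 0.00475). Of all genes, 16.1% were called with the covariate and 7.33% without the libraries of low score. Knockout after exercise replicates 2 and 4, which had 449 and 393 CPM, are among the libraries of low score. The others were vehicle after exercise replicates 2 and 4 (526 and 542 CPM) and vehicle at rest replicate 5 (606 CPM).

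Slc2a12 encodes GLUT12, a further transporter found in muscle and fat. It ran from 9.35 to 13.5 CPM in vehicle at rest and from 7.64 to 12.1 CPM in knockout at rest, and from 9.10 to 13.3 and from 8.10 to 11.3 CPM after exercise. The groups overlapped in both states. The averaged genotype difference of -0.29 on the log2 scale (95% interval -0.51 to -0.076, adjusted p 0.0747) missed the threshold. It passed with the slow-fibre score as a covariate (-0.30, adjusted p 0.0473), where 16.1% of all genes were called, against 11% in the main fit. It also passed in 3 of 20 fits that dropped a single library (vehicle after exercise 2, knockout at rest 2, knockout after exercise 1). Of its exon length, 9.61% overlaps the opposite-strand gene Tbpl1, which had 83 to 161 counts per library against 64 to 126 for Slc2a12, and whether reads were counted by strand is not given in the sources used here.

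Slc2a1 encodes GLUT1, the basal transporter of most tissues. It ran from 6.03 to 8.60 CPM in vehicle at rest, from 3.24 to 10.6 CPM in vehicle after exercise, from 5.65 to 8.09 CPM in knockout at rest and from 6.26 to 9.95 CPM in knockout after exercise. All 4 groups overlapped. The averaged genotype difference was 0.062 on the log2 scale, with a 95% interval of -0.25 to 0.38 (adjusted p 0.854), which does not show that the levels are equal. An antisense gene, Gm12868, overlaps 2.99% of its exon length and had 4 to 18 counts per library.

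Hk2 encodes hexokinase II, which phosphorylates glucose on entry. At rest it stood at 454, 458, 463, 465 and 618 CPM in vehicle and at 276, 280.2, 285, 293 and 297 CPM in knockout. After exercise it stood at 507, 548, 601, 752 and 877 CPM in vehicle and at 221, 270, 413, 447 and 480.4 CPM in knockout. In each state the lowest vehicle library was above the highest knockout-labelled one. At rest the log2 fold change of Hk2 was -0.78 ± 0.18 (SE), with an edgeR adjusted p of 0.0129. In exercised muscle the log2 fold change was -0.84 ± 0.18 (adjusted p 0.00527). Averaged over both states it was -0.81 ± 0.13 (adjusted p 1.23e-04), a 1.76-fold lower level. The call at rest was lost without a filter on low counts (adjusted p 0.0525), and the call after exercise was lost when only those 2 groups were fitted (0.063). In the 5 resting knockout libraries the coefficient of variation was 3.10%, against 31.2% in the 5 exercised ones.

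Hk1 encodes hexokinase I, the form of brain and red cells. It ran from 4.55 to 7.22 CPM in vehicle at rest, 4.10 to 6.46 CPM in vehicle after exercise, 5.07 to 7.45 CPM in knockout at rest and 2.699 to 7.52 CPM in knockout after exercise. Its averaged genotype difference was -0.0036 on the log2 scale, with a 95% interval of -0.32 to 0.31 (adjusted p 0.993). It had 25 to 70 counts per library, and a difference inside that interval could not be told from 0.

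Tbc1d1 encodes a Rab GTPase-activating protein of GLUT4 vesicles that AMPK phosphorylates and that prevails in fast muscle. At rest it stood at 71.7, 79.9, 126, 126 and 133 CPM in vehicle and at 23.8, 29.2, 46.7, 46.9 and 61.8 CPM in knockout. After exercise it stood at 76.1, 94.5, 106, 134 and 153 CPM in vehicle and at 19.9, 38.6, 62.4, 70.2 and 91.0 CPM in knockout. The groups did not overlap at rest and did after exercise. The log2 fold change was -1.37 at rest (SE 0.35, adjusted p 0.0380). Dropping a single library ended this call in 7 of 10 fits (vehicle at rest 3, 4 and 5, knockout at rest 1, 2, 4 and 5), where the highest adjusted p was 0.0990, and so did testing with no filter on low counts (0.0777). The value was -0.996 after exercise (SE 0.35, adjusted p 0.107), which did not pass. Averaged over both states it was -1.18 (SE 0.25, adjusted p 0.00422), a 2.27-fold lower level, and Tbc1d1 was called in all 20 fits that dropped a single library. A call in 1 state and not in the other shows no difference between them, and the interaction of Tbc1d1 was 0.37 on the log2 scale (95% interval -0.67 to 1.41, adjusted p 0.978).

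Tbc1d4, also called AS160, encodes the paralogue that AKT phosphorylates after insulin. It ran from 33.1 to 65.9 CPM in vehicle at rest, 44.7 to 52.5 CPM in vehicle after exercise, 42.2 to 65.2 CPM in knockout at rest and 42.2 to 78.4 CPM in knockout after exercise. All groups overlapped, and the averaged genotype difference was 0.088 on the log2 scale (95% interval -0.16 to 0.33, adjusted p 0.712).

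In counts, 3 of the 8 members were called lower at rest (Slc2a3, Hk2 and Tbc1d1) and 0 higher, where 3.86% of the 13560 genes tested were called, 2.06% lower and 1.8% higher. After exercise 2 were called lower (Slc2a3 and Hk2) and 0 higher, where 6.42% of all genes were called, 3.75% lower and 2.67% higher. The same 2 members were the ones whose exercised groups did not overlap, as for 6.29% of all genes, against 4 members at rest (5.8%). In the contrast averaged over both states 4 were called lower (Slc2a3, Hk2, Tbc1d1 and Slc2a4) and 0 higher, where 11% of all genes were called, 5.78% lower and 5.18% higher. The median log2 fold change of the 8 members there was -0.25, and that of all genes tested 0.0099. The members had been proposed with earlier results of these data in view, so these counts are a description of the list.

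**Figure D2:**
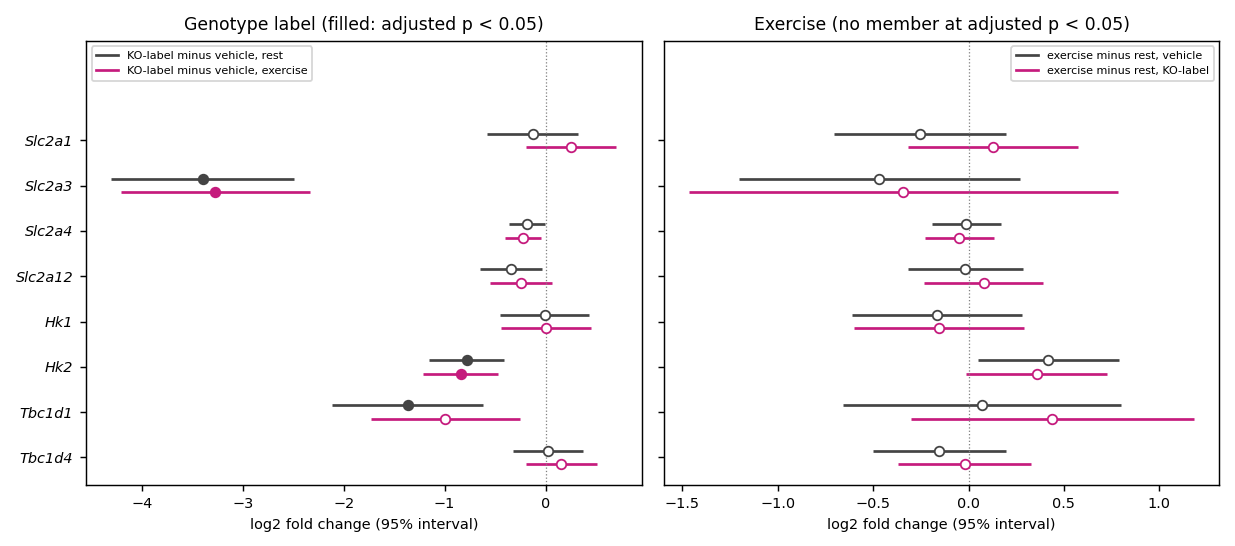
Log2 fold changes of the 8 members with 95% intervals, for the genotype label (left, at rest and after exercise) and for exercise (right, in vehicle and knockout-labelled muscle); filled points passed an adjusted p of 0.05. Slc2a3 lies near -3.40 and -3.27, Hk2 near -0.78 and -0.84, and in the right panel the interval of Hk2 in vehicle runs from 0.048 to 0.79.

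The second question was how these genes stood 1 h after running. In the fit over all 20 libraries 0 members were called in vehicle, where 0.804% of genes were, and 0 in knockout-labelled muscle, where 0 genes were (0%). At an unadjusted p under 0.05, 1 member passed in vehicle (Hk2, p 0.0287), where 8.92% of genes did, and 0 in knockout, where 4.71% did. The log2 fold change of Hk2 was 0.42 in vehicle (SE 0.18, adjusted p 0.457) and 0.36 in knockout (SE 0.18, adjusted p 1), and 0.39 averaged over genotypes (SE 0.13, adjusted p 0.241), where 0.634% of all genes were called. DESeq2 and limma-voom also called 0 members in either genotype. Slc2a4 moved by -0.011 in vehicle (95% interval -0.19 to 0.17) and -0.049 in knockout (95% interval -0.23 to 0.13). The interaction, which compares both exercise responses, called 0 members and 0 of all genes (0%) with edgeR, and 0 members with DESeq2 and limma-voom. At an unadjusted p under 0.05 it held 0 members and 791 genes, 5.83% of those tested. For Hk2 it was -0.062 on the log2 scale, with a 95% interval of -0.58 to 0.46 (adjusted p 0.993).

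Hk2 levels differed with the slow-fibre score in the exercised groups. In knockout after exercise, the libraries with scores of 1.14 and 1.42 had 270 and 221 CPM, and those with scores of 5.29, 6.95 and 7.70 had 413, 480.4 and 447 CPM. In vehicle after exercise, those with scores of 0.025 and 2.79 had 548 and 507 CPM, and those with 5.64, 7.34 and 7.60 had 601, 877 and 752 CPM. In knockout at rest the scores ran from 4.53 to 8.41 while Hk2 kept to 276 to 297 CPM. In vehicle at rest the libraries with scores of 2.64, 5.68, 6.60, 7.49 and 7.70 had 454, 465, 618, 463 and 458 CPM. In the exercised groups the libraries of low score thus held the lowest levels, well below most others. At rest the library of low score (454 CPM) was also the lowest of its group, but close to those at 458 to 465 CPM. The highest resting level, 618 CPM, was at a score of 6.60. Whether the slope differs between groups was not tested. In a fit with 1 slope for all 20 libraries, Hk2 rose by 0.087 on the log2 scale per unit of score (SE 0.019, adjusted p 0.00179, edgeR), and 23.6% of genes were called for the score. Hk2 was the only member called for the score. Tbc1d1 (0.084, SE 0.053, adjusted p 0.283) and Slc2a4 (0.023, SE 0.011, adjusted p 0.150) did not pass.

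**Figure D3:**
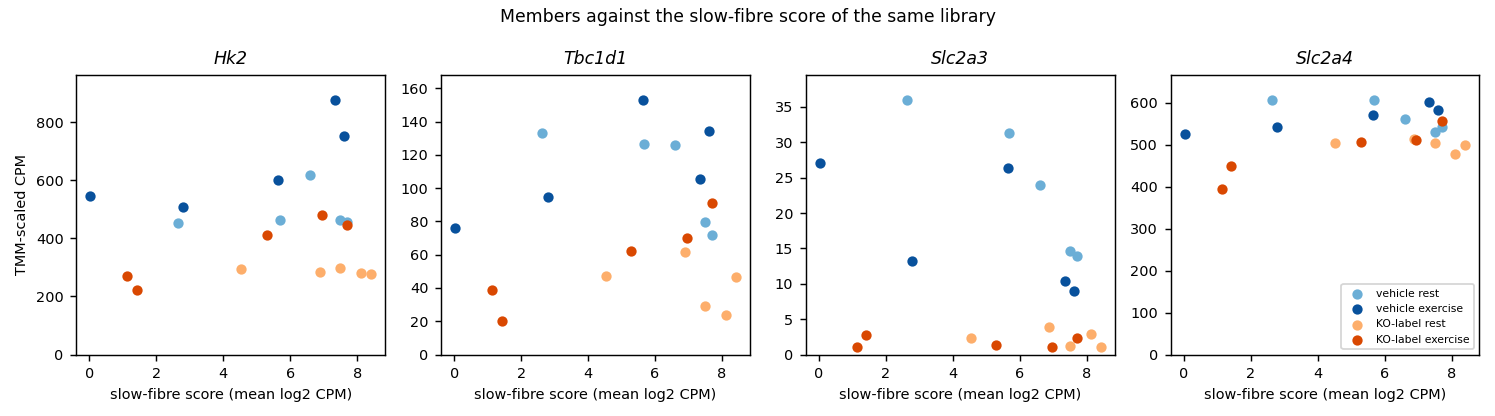
Scaled CPM of Hk2, Tbc1d1, Slc2a3 and Slc2a4 against the slow-fibre score of the same library, 1 point per library, coloured by group. In knockout after exercise the libraries with scores of 1.14 and 1.42 hold the lowest Hk2 levels, 270 and 221 CPM, and in vehicle at rest the highest Slc2a3 level, 36.0 CPM, is in the library with a score of 2.64.

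With the score as a covariate, and so with this single slope, Hk2 was higher after exercise in vehicle (log2 fold change 0.51, SE 0.13, adjusted p 0.0351, where 1.89% of genes were called) and averaged over genotypes (0.52, SE 0.093, adjusted p 0.00286, where 2.02% were called). In knockout-labelled muscle it was 0.53 (SE 0.13, adjusted p 0.159). Leaving out the 5 libraries of low score, an alternative chosen after the scores were seen, gave 0.56 in vehicle (SE 0.12, adjusted p 0.0387, where 0.444% of genes were called). It gave 0.64 in knockout (SE 0.12, adjusted p 0.0512) and 0.60 averaged over genotypes (SE 0.084, adjusted p 8.57e-04, where 0.983% were called). That alternative compares 3 exercised with 4 resting vehicle libraries, and 3 exercised with 5 resting knockout libraries. The exercised libraries left out held the 2 lowest Hk2 levels of each group (507 and 548 CPM in vehicle, 221 and 270 CPM in knockout). At rest only the lowest vehicle library (454 CPM) was left out. The higher exercise values of this alternative thus follow in part from which libraries were dropped, and are no separate support for a change. No other member was called for exercise in either alternative. The genotype differences of Slc2a3, Hk2 and Tbc1d1 averaged over both states were called in both alternatives. For Hk2 the log2 fold changes were -0.86 and -0.77, and for Tbc1d1 -1.25 and -1.05. Of all genes, 16.1% were called in that contrast with the covariate and 7.33% without the libraries of low score. Of the 5 libraries of low score 4 were from exercised muscle, and the part of fibre content in the exercise values was not tested beyond these fits.

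**Figure D4:**
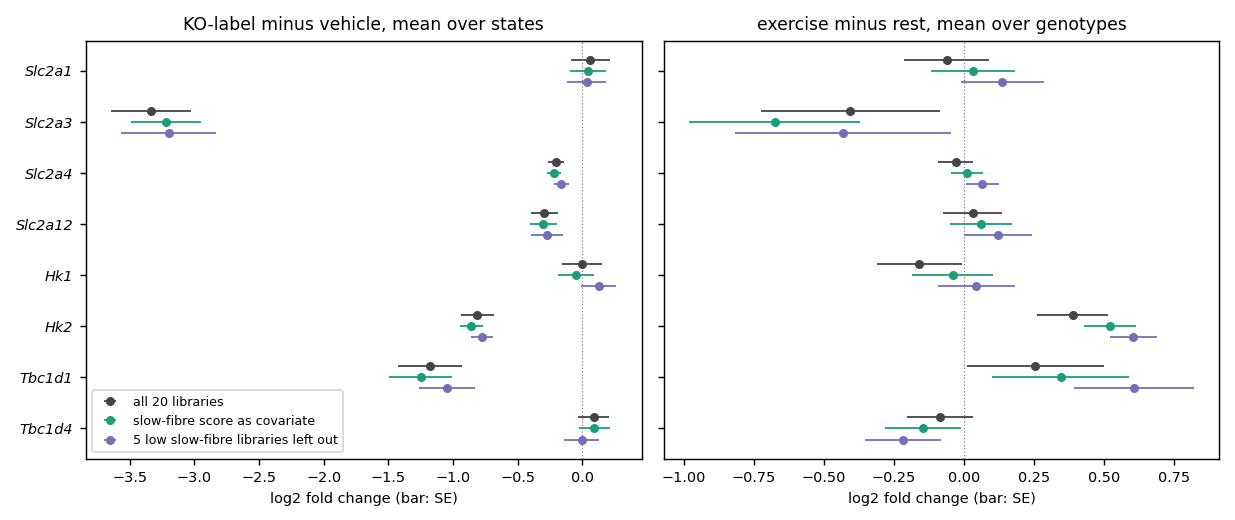
Log2 fold changes (bars are SE) of the 8 members for the genotype label averaged over both states (left) and for exercise averaged over genotypes (right), in the fit over all 20 libraries, with the slow-fibre score as a covariate, and without the 5 libraries of low score. For exercise, Hk2 moves from 0.39 to 0.52 and 0.60, while the genotype differences of Slc2a3 stay between -3.34 and -3.20.

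Members were also set beside each other within groups, as a description over 20 samples with each group mean removed. Hk2 and Slc2a4 had a Pearson r of 0.683, Tbc1d1 and Slc2a4 of 0.705, and Hk2 and Tbc1d1 of 0.65, while Tbc1d1 and Tbc1d4 had an r of -0.572. Hk1, which was not called, had an r of 0.675 with Hk2. Slc2a3, which was called, had an r of -0.275 with Hk2, 0.166 with Slc2a4 and 0.0985 with Tbc1d1. The points share depth and the fibre mix of each library, and 11723 genes were searched for likeness. The genes most like Hk2 in this measure were Flnc (r 0.938), which encodes a filamin of the Z-disc, and Tnfrsf12a (0.916), the receptor of TWEAK. Those most like Slc2a4 were Zbtb4 (0.922) and Cenpb (0.884), those most like Slc2a3 were Ctps (0.896) and Vps72 (0.876), and those most like Tbc1d1 were Gm28651 (0.839) and Extl1 (0.821). For Tbc1d4 they were Polr2b (0.877) and Acss3 (0.849), for Slc2a1 Atcay (0.835) and Slc25a29 (0.826), for Hk1 4930523C07Rik (0.854) and Ctns (0.829), and for Slc2a12 Ep400 (0.798) and Gm43012 (0.721).

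Of 8 other transporter genes 2 passed the filter on low counts, Slc2a8 and Slc2a10. Slc2a10, which encodes GLUT10, was called lower in knockout at rest (-1.81 on the log2 scale, SE 0.46, adjusted p 0.0228) and in the averaged contrast (-0.99, SE 0.30, adjusted p 0.0302), but not after exercise (-0.17, SE 0.37, adjusted p 0.851). The interaction was not called for Slc2a10, so a difference between the states was not shown. Slc2a10 had 1 to 17 counts per library.

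Genes that act on the members were given as 3 lists. For all genes, 3.86% were called at rest, 6.42% after exercise and 11% in the averaged genotype contrast, and the small counts below are read beside these shares. Of 15 genes of GLUT4 vesicle traffic, 0 were called at rest or after exercise. In the averaged contrast 1 was called lower, Stx4a (log2 fold change -0.26, SE 0.070, adjusted p 0.0165), the syntaxin that docks GLUT4 vesicles, and the list's median was 0.020 against 0.0099 for all genes. Of 15 genes of insulin and AMPK signalling, 2 were called lower at rest, 3 after exercise and 2 in the averaged contrast, and 0 higher. Akt1, a kinase of the insulin pathway, had an averaged log2 fold change of -0.52 (SE 0.085, adjusted p 1.42e-04), from 48.4 ± 1.65 CPM in vehicle to 36.1 ± 4.34 CPM in knockout at rest. Prkag2, a regulatory subunit of AMPK, had one of -0.64 (SE 0.10, adjusted p 1.40e-04). Stk11, which encodes the AMPK kinase LKB1, was called lower after exercise (-0.47, SE 0.10, adjusted p 0.00588). It was not called at rest (0.033, SE 0.10, adjusted p 0.936), and the interaction was not called either (-0.51, SE 0.15, adjusted p 0.717). Irs2, an insulin receptor substrate, was called higher with exercise averaged over genotypes (1.57, SE 0.33, adjusted p 0.0389), where 0.634% of all genes were called.

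Of 12 regulators of Slc2a4 and Hk2 transcription, 2 were called in the averaged genotype contrast. Hif1a, which encodes the oxygen-sensitive subunit of HIF-1, was higher (log2 fold change 0.45, SE 0.12, adjusted p 0.0173), and Nr4a1, an orphan nuclear receptor induced by exercise, was lower (-0.56, SE 0.17, adjusted p 0.0414). Of the separate states, Nr4a1 was called lower in knockout after exercise (-0.94, SE 0.24, adjusted p 0.0254) and not at rest (-0.18, SE 0.24, adjusted p 0.811). The interaction was not called for Nr4a1, so a difference between the states was not shown. With exercise in vehicle, Nr4a1 (1.37, SE 0.25, adjusted p 0.00921) and Klf15 (0.58, SE 0.14, adjusted p 0.0397), a Krüppel-like factor of glucose metabolism, were higher. In that contrast 0.804% of all genes were called.

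**Figure D5:**
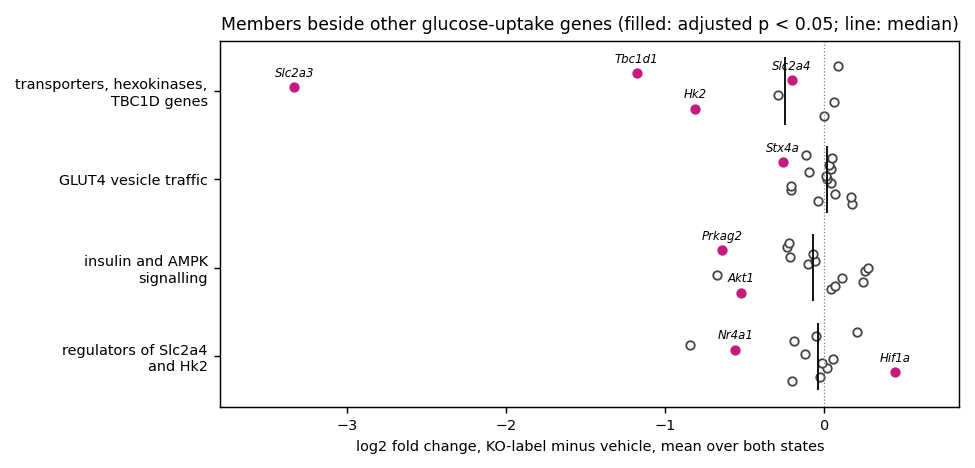
Log2 fold changes for the genotype label averaged over both states in the 8 members and 3 lists of genes that act on them, 1 point per gene, with a line at each list's median; filled points passed an adjusted p of 0.05 over all genes. Slc2a3 at -3.34 and Tbc1d1 at -1.18 lie farthest to the left, and the median of the vesicle traffic list is 0.020.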

How the data were processed

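The authors deposited 1 table of raw counts for the 20 gastrocnemius libraries, with a symbol in each row and 106 rows of a repeated symbol. The submitters' processing notes name STAR 2.7.8a, Partek and DESeq2, and the builds mm10 and GRCm39, without saying which step used which. Annotation and strandedness are not given in the sources used here. Groups came from the treatment labels and replicate numbers from the titles.

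The low-count filter was filterByExpr at its minimum of 10 counts, and 13560 genes with 99.83% of all counts passed. Libraries were scaled by TMM, and a robust quasi-likelihood model of edgeR 4.0.16 with 1 mean per group was fitted to all 20 samples in R 4.3.3. There were 7 contrasts, with Benjamini-Hochberg adjustment over all genes and a threshold of 0.05. SEs were derived from F statistics and intervals cover 95%. Log2 CPM used a prior count of 2. The depth of 8045154 to 11269812 counts per sample limits genes of few counts. Same-numbered samples did not deviate together in every pair (over 0.1 in 15 of 30). That cannot settle whether samples were paired, and the numbers were not taken as pairs.

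The members, lists and tests were chosen with earlier results of these data known. All members were named, and a gene of another list was named where it passed in a contrast (otherwise the one with the smallest p). 1 gene that this rule would have named is not reported here. The script was tested on simulated data. Alternatives were DESeq2 1.42.0, limma-voom (limma 3.58.1), 3 other scalings, filters, covariates and libraries left out.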

Additional observations from a re-analysis of the deposited data

Results flagged for a closer look

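Of 32 sets of 5 samples (8 genes in 4 groups), 1 held a sample far from the others by Dixon's test: Hk2 in vehicle at rest, where replicate 3 stood at 618 CPM and the other 4 between 454 and 465 CPM. Chance alone marks about 1 in 20 such sets. Without this library the Hk2 genotype difference at rest was -0.68 on the log2 scale (adjusted p 0.0462, edgeR), and the Hk2 change with exercise in vehicle was 0.51 (adjusted p 0.321).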

How the results depend on the processing

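Each value was recomputed under 13 other settings and with single libraries left out (each of the 10 compared, or of all 20 for the interaction and averaged contrasts), where "only the groups compared" gives no value for the interaction and the averaged contrasts. Of 1504 alternative log2 fold changes, 1378 kept direction and side of the threshold, 18 lost a call, 8 gained one and 100 changed sign, all of the last for values that were not called. Slc2a3 was called in all 3 genotype contrasts under every setting run. The count of members called at rest, 3, was 1 without a filter on low counts; after exercise, 2, it was 1 with only those groups fitted; averaged over both states, 4, it was 3 by library size only and without the libraries of low score, and 5 with the score as a covariate; for exercise in vehicle and averaged over genotypes, 0, it was 1 with the slow-fibre score as a covariate and 1 without the libraries of low score. In the averaged genotype contrast 11% of all genes were called in the main fit. That share was 16.1% with the covariate and 7.33% without the libraries of low score. The causes of the changed counts were not tested.

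Signs changed for small differences. With the score as a covariate they were -0.0019 for Hk1 between genotypes after exercise, 0.016 for Slc2a4 and 0.0019 for Slc2a12 with exercise in vehicle, 0.0048 for Slc2a4 and 0.0053 for Hk1 with exercise in knockout, -0.034 for Slc2a3 and 0.019 for Hk2 in the interaction, and 0.032 for Slc2a1 and 0.010 for Slc2a4 with exercise on average. Without the libraries of low score they were 0.043 for Hk1 at rest, -0.010 for Tbc1d4 after exercise, 0.057 for Slc2a4 and 0.11 for Slc2a12 with exercise in vehicle, 0.071 for Slc2a4 and 0.13 for Hk1 in knockout, 0.014 for Slc2a4, 0.081 for Hk2 and -0.011 for Tbc1d4 in the interaction, 0.13 for Hk1 and -0.0048 for Tbc1d4 between genotypes on average, and 0.14 for Slc2a1, 0.064 for Slc2a4 and 0.044 for Hk1 with exercise on average. Hk1 was 0.017 between genotypes on average by library size only, -0.050 after exercise and -0.032 in the interaction with limma-voom, and -0.011 after exercise with no filter.

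With single libraries left out, members called ranged from 2 to 3 at rest and from 3 to 5 on average. Ranges that crossed 0 were, for Hk1, -0.099 to 0.054 at rest, -0.14 to 0.17 after exercise, -0.29 to 0.019 with exercise in knockout, -0.12 to 0.19 in the interaction and -0.078 to 0.075 between genotypes on average. For Tbc1d4 they were -0.11 to 0.11, -0.018 to 0.23, -0.19 to 0.057, -0.029 to 0.27 and -0.0031 to 0.13 in the same contrasts. For Slc2a4 they were -0.043 to 0.014 with exercise in vehicle, -0.11 to 0.017 in knockout, -0.092 to 0.028 in the interaction and -0.063 to 0.0032 with exercise on average. The others were Slc2a12 (-0.087 to 0.049 in vehicle, -0.0089 to 0.093 on average) and Tbc1d1 (-0.066 to 0.18 in vehicle) with exercise, Slc2a1 (-0.022 to 0.18 between genotypes, -0.19 to 0.021 with exercise, on average), and the interactions of Slc2a3 (-0.070 to 0.42) and Hk2 (-0.18 to 0.079).

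The titles number samples from 1 to 5 in each group. Of 30 same-numbered pairs 15 deviated together (r over 0.1), and 7 correlated best with their own number. These values cannot settle whether a shared number joins samples, and the numbers were not taken as pairs. With the replicate block the counts of members called were 3, 2, 0, 0, 0, 4 and 0, as without it, and Hk1 changed sign after exercise (-0.028) and in the interaction (-0.0064). Counts per library were 25 to 70 for Hk1, 30 to 107 for Slc2a1 and 8 to 35 for Slc2a3 in knockout, and the share of depth in their errors was not tested.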
